A study of Mus musculus castaneus and Mus musculus domesticus and Mus musculus with 11 samples.

Results

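Expression in motor neurons of a CAST x 129 hybrid mouse line was compared with the midparent, which is the average of the log2 levels of its parents, each weighted by 0.5. The comparison used 9 of the 11 samples of the series, 3 libraries per line. The 129 group was the 129S6/SvEv line, a laboratory strain background. The CAST group was the CAST/EiJ line, which comes from a wild-derived strain. The hybrid group, labelled 129CAS, was a hybrid CASTx129 line. Motor neurons of all 3 lines had been differentiated from stem cells in culture, per the series title and design text, and the labels name no treatment and no genetic change. The other 2 samples, numbered 7 and 8 in CAST, belong to another matrix and were not analysed here. Genes were the members described: 14839 of 27071 genes passed the filter on low counts, and the account rests on the 9266 of them whose exons overlap no exon of another gene on either strand. The remaining 5573 tested genes, with exonic overlap or no annotation, are given for comparison only.

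A hybrid cell carries 1 copy of the genome of each parent. Where each copy keeps the activity it has in its own parent, the hybrid lies near the arithmetic mean of the parents. In this account, additive genes are placed by the mean of log2 levels instead, which lies lower where the parents differ. Where the hybrid lies at the level of 1 parent, that parent is called dominant, and a gene above or below both parents is called overdominant or underdominant. Regulatory differences carried on the same DNA molecule as a gene (cis) and differences in diffusible factors (trans) are both known to shape these patterns, and counts summed over both copies cannot part them.

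Total counts ran from 7763077 to 18167577 per library. Nothing in the labels tells whether replicate libraries were grown as independent cultures, and the p-values therefore reflect the spread among these samples, which may be technical. The label of motor neuron was checked against 5 defining genes. Isl1, a transcription factor of postmitotic motor neurons, was found at 13.1, 30.6 and 62.7 CPM (counts scaled to the library total, comparable across libraries but not across genes of unequal length) in 129, at 17.4, 20.0 and 27.9 CPM in the hybrid, and at 62.4, 39.7 and 15.7 CPM in CAST. Chat, the enzyme that makes acetylcholine, ran from 5.52 to 28.4 CPM, and Mnx1, a motor neuron transcription factor, from 0.495 to 4.88 CPM over the 9 libraries. Lhx3, whose exons overlap another gene over 6.2% of their length, was at 2.13 CPM or less in every library and at 0 in hybrid 1. Olig2, which marks the progenitors of motor neurons, was at 4.22 CPM or less and at 0 in CAST 1. None of the 5 was called between the hybrid and the midparent, with groups that overlapped for each. Of 14 tested genes of spinal motor neuron identity without exonic overlap, 0 were called by edgeR and 0 had an unadjusted p below 0.05. Their summed level was 1500 to 4308 CPM in 129, 1768 to 3991 CPM in the hybrid and 2032 to 7048 CPM in CAST. Fibroblast and mesenchyme markers were also present, with 12 of them summing to 4959 to 21821 CPM in 129, 5450 to 21821 CPM in the hybrid and 7421 to 8788 CPM in CAST. In bulk libraries, fewer cells of a type and less RNA per cell cannot be told apart.

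The hybrid libraries stood apart from both parents in which genes received reads at all. Among genes without exonic overlap, 7 had no read in any hybrid library but a mean of at least 5 CPM in both parents. The same pattern was found for 0 genes in 129 and 1 gene in CAST. In the other direction, 11 genes had at least 5 CPM in the hybrid and 3 counts or fewer in each parent, against 4 for 129 and 5 for CAST. Among genes with exonic overlap the hybrid numbers were 25 without reads and 111 with reads in the hybrid alone, against 0 and 2 in 129 and 2 and 2 in CAST. How reads over shared exons or shared sequence were counted, and whether the 3 lines were counted alike, is not given in the sources used here, and its part in the results was not tested. CAST 1 and hybrid 2 also stood apart, with log2 expression relative to all libraries falling by 0.62 and 0.57 per doubling of exon length. Hybrid 3 fell by 0.15 and the other 6 libraries rose by 0.13 to 0.28.

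Against the midparent, the hybrid was higher for 219 of the 9266 genes and lower for 74 (edgeR quasi-likelihood test, two-sided, Benjamini-Hochberg adjusted p under 0.05 over all 14839 tested genes). These are 2.36% and 0.799% of the genes without exonic overlap. Among genes with exonic overlap the shares were 11.7% higher and 2.55% lower, that is, 654 and 142 of 5573 genes. At an unadjusted p below 0.05, 824 genes without overlap were higher and 424 lower. Most tested genes lay near the midparent: the median log2 difference over the 9266 genes was −0.05, with quartiles of −0.48 and 0.48, and 4366 genes had a positive value. The fitted hybrid level lay between the fitted parental levels for 3163 genes, or 34.1%. Single libraries moved the counts: without CAST 1, 512 genes were above and 159 below, without hybrid 2, 120 were above, and without 129 2 or 129 3, 131 and 146 were above. Without both CAST 1 and hybrid 2, 255 were above and 117 below, of which 140 and 66 were among the 219 and 74.

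**Figure D1:**
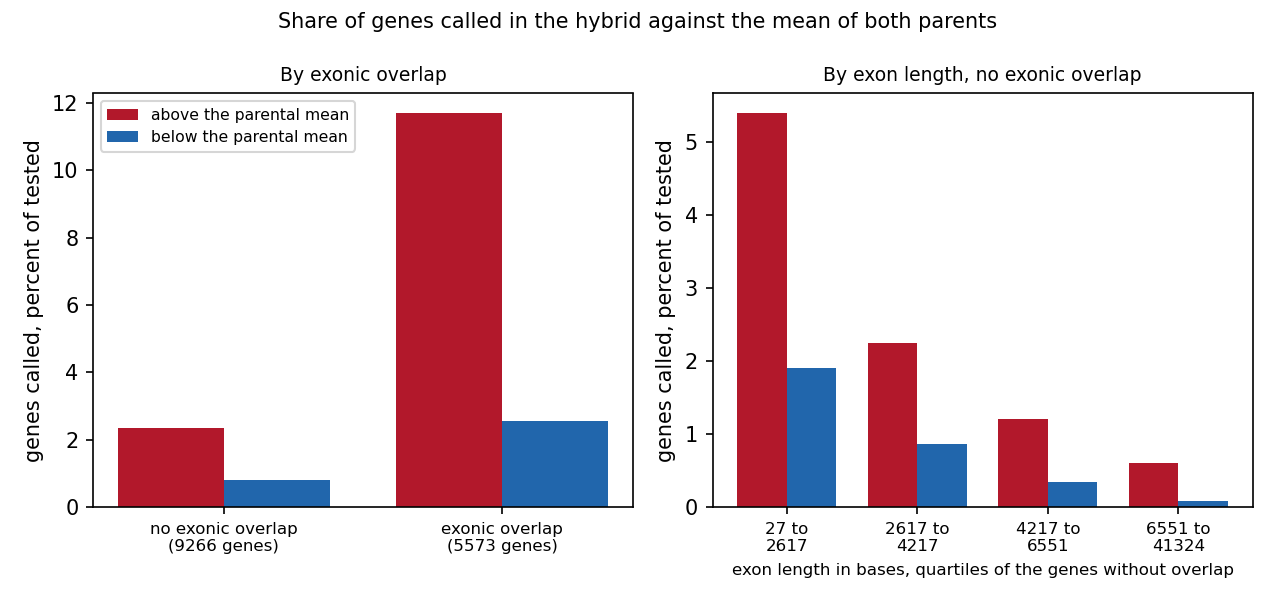
Percent of tested genes called above (red) or below (blue) the midparent, by exonic overlap (left) and by quartile of exon length among genes without overlap (right). The share above was 2.36% without and 11.7% with exonic overlap, and fell from 5.39% in the shortest to 0.604% in the longest quartile.

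The genes called had shorter exons in the median and lower levels than all tested genes. Mean CPM over the 9 libraries was 3.47 in the median for the genes above and 4.36 for those below, against 28 for all. Median exon length was 2221 bases for the genes above and 1992 for those below, against 4217 for all 9266. In the shortest quartile of exon length, 5.39% of 2319 genes were above and 1.9% below, and in the longest quartile 0.604% of 2316 were above and 0.0864% below. The fall from short to long genes remained in the numbers without CAST 1 and hybrid 2, with 132 genes above in the shortest quartile and 19 in the longest. With an offset for each library's own length trend, the 4 quartiles held 79, 47, 49 and 35 genes above. Protein-coding genes made up 83.1% of the genes above, 66.2% of those below and 95.8% of all. Called genes were spread over the genome, with 1.95% to 4.32% of the tested genes called on each autosome and on X.

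Differences were summarised for called genes with reads in every line. Of the 219 genes above, 164 had more than 3 counts in each group. Their median log2 difference from the midparent was 2.53, with quartiles of 1.99 and 3.08. Of the 74 genes below, 54 had 0 counts in all 3 hybrid libraries, and 20 had more than 3 counts in each group, with a median of −1.80. A parent at 3 counts or fewer was found for 55 of the genes above, and both parents for 26 of these. Those 26 passed the filter on low counts through their hybrid reads only, so nothing is read from their calls. A fold against a group without reads has no fixed size, so bounds are given for such genes in place of a fold.

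The called departures were placed against each parent. Of the 219 genes above, the fitted hybrid level lay outside both fitted parents for 211 and between them for 8. Of the 74 genes below, it lay outside for all 74. Since the genes were chosen by this contrast and 12 of the 219 and 12 of the 74 had a parental call, nothing is read from these counts. Called against both parents in the same direction were 57 genes above, 0.615% of the 9266, and 44 below, 0.475%. Of the other genes above the midparent, 75 were called only against 129, 35 only against CAST and 52 against neither. Of the other genes below, 8 were called only against 129, 19 only against CAST and 3 against neither. All 3 hybrid libraries lay above all 6 parental libraries for 170 of the 219 genes above, and below them for 68 of the 74 genes below. Over all 9266 genes these shares were 3.42% and 3.08%, and since the call uses the same contrast, nothing is read from the difference.

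**Figure D2:**
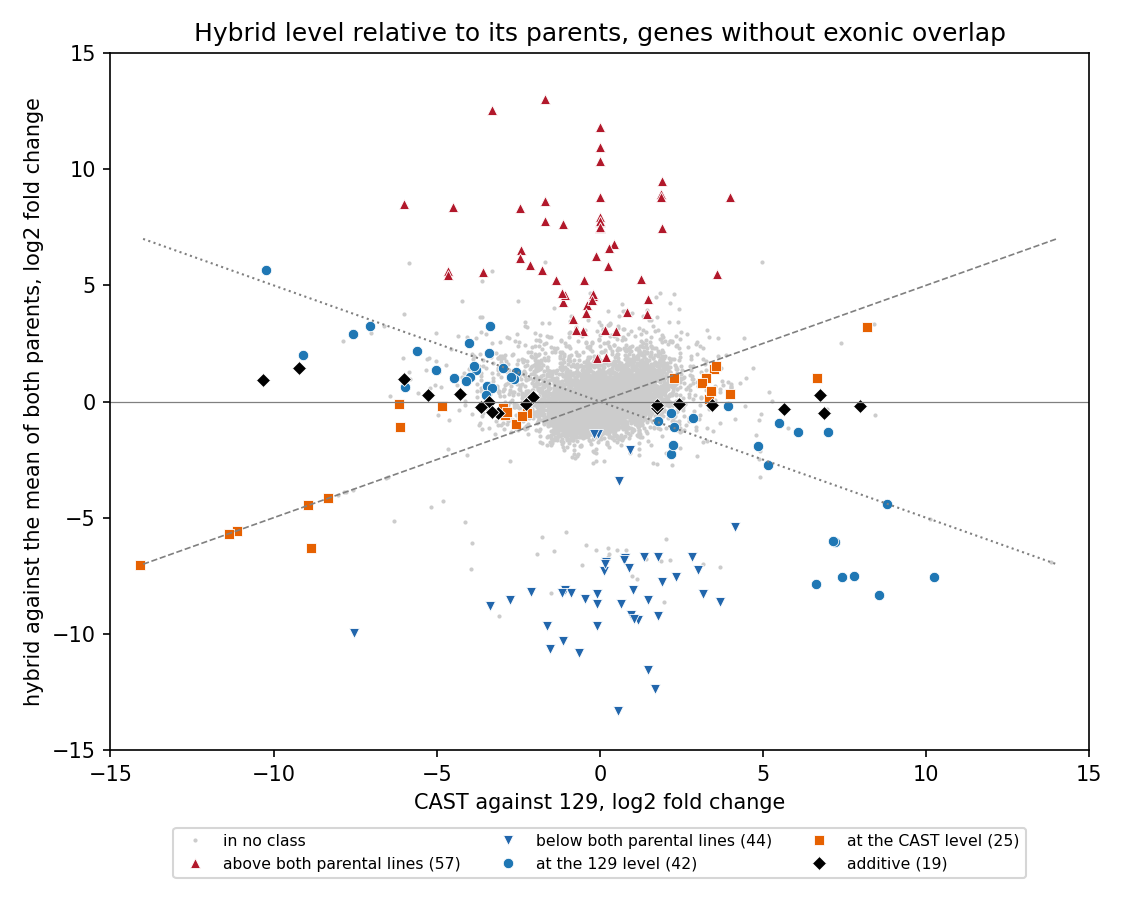
Each point is a gene without exonic overlap, with the log2 difference between CAST and 129 on the x axis and the log2 difference between the hybrid and the midparent on the y axis. Along the horizontal line the hybrid is at the midparent, along the dashed line at the CAST level and along the dotted line at the 129 level; the 57 genes above and 44 below both parents are marked by triangles. Fitted values of genes with a group at 0 counts have no fixed size.

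The genes above both parents included transporters and enzymes with reads in all lines. Slc7a11 (ENSMUSG00000027737, chromosome 3, 49892526 to 50443614 of GRCm38, minus strand) encodes the cystine and glutamate exchanger that supplies cystine for glutathione. It was at 3.95, 7.62 and 10 CPM in 129, 235, 755 and 617 CPM in the hybrid, and 0.206, 6.29 and 13.4 CPM in CAST. The lowest hybrid library was far above the highest parental one, and the difference from the midparent was 6.27 ± 0.89 on the log2 scale (SE, adjusted p = 0.00169, edgeR). The parents did not differ by the test (−0.11 ± 0.97, adjusted p = 0.963, edgeR). The introns of Slc7a11 overlap another annotated gene, although its exons do not. Such overlap of the gene body was found for 38.6% of the genes above both parents and 30.4% of all 9266. Atp6v0c (chromosome 17, 24163866 to 24169702), a subunit of the proton channel of the vacuolar ATPase, was at 6.45, 4.45 and 8.10 CPM in 129, 212, 540 and 389 CPM in the hybrid, and 23.3, 11.2 and 11.1 CPM in CAST. Its groups did not overlap either, and the difference from the midparent was 5.27 ± 0.42 (adjusted p = 8.07e-05, edgeR). Of the 31-base words in its exons, 11.9% also occur in another annotated gene, with the pseudogene Atp6v0c-ps2 holding the most. Myo3a (chromosome 2, 22227503 to 22618252), a myosin with a kinase domain known from the inner ear and the eye, was near 0 in 129 (0.111, 0 and 0.115 CPM), at 0.929, 2.25 and 0.788 CPM in CAST, and at 177, 121 and 161 CPM in the hybrid. This was the largest difference among the genes with more than 3 counts in each group (8.81 ± 0.54, adjusted p = 3.4e-05, edgeR). Myo3a had 4 counts over the 129 group, close to the floor of 3, so the size of this difference is uncertain. None of its words occur in another gene.

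Other genes above both parents had low parental levels. Slc23a1, a vitamin C transporter, was at 0.281 CPM or less in every parental library and at 14, 15.6 and 18.7 CPM in the hybrid. Rubcnl, a regulator of autophagy, was at 1.11, 0.427 and 0.0575 CPM in 129, 18.0, 7.68 and 20.1 CPM in the hybrid, and 0, 0.168 and 0.143 CPM in CAST. Hspb1, a small heat shock protein, was at 0.778 CPM or less in every parental library and at 11.2, 43.0 and 4.61 CPM in the hybrid, with 55.4% of its words shared with other genes. Each of these 3 genes was higher in all 3 hybrid libraries than in all 6 parental ones, with log2 differences from the midparent of 6.80 ± 0.66, 5.88 ± 0.73 and 5.22 ± 0.64. Hybrid 2 was the highest library for Hspb1, and without it the difference was 3.94. Slc23a1, Rubcnl and Hspb1 passed the filter on low counts through their hybrid reads, so nothing is read from their calls.

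Some genes above both parents were uneven among the hybrid libraries. Krt4, an epithelial keratin, was at 3.68, 69.2 and 13.6 CPM in hybrid 1, 2 and 3, against 0.430 to 2.06 CPM in the parents, and its difference of 4.62 ± 0.83 was 2.92 without hybrid 2. Fam183b was at 18.0, 131 and 65.9 CPM in the hybrid and 1.22 to 5.73 CPM in the parents. Clec3b, which encodes tetranectin, was at 14.7, 67.3 and 43.8 CPM, and Thrsp, a regulator of lipid synthesis, at 13.8, 34.4 and 20.3 CPM in the hybrid. Their parental levels were 3.41 to 8.31 CPM and 1.43 to 4.71 CPM. Hybrid 2, which had the strong length trend, was the highest library for all 4 genes, and each remained called without it (highest adjusted p over single libraries left out 0.0366 for Krt4, edgeR).

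Of the 9266 genes, 10 were at 0 in all 6 parental libraries, each of them called above both parents. Such genes passed the filter on low counts through their hybrid reads only, so nothing is read from these calls. The named ones among the 10 were Il4 and Tmem254c. Rnf113a2, named after its values were seen, was the other one with at least 5 CPM in the hybrid, at 5.87, 17.9 and 10.3 CPM. Il4, the cytokine interleukin 4 (chromosome 11, 53602982 to 53618669, minus strand), was at 0 in all 6 parental libraries and at 19.7, 7.82 and 24.8 CPM in the hybrid. That is at least 335-fold higher than 129 and at least 268-fold higher than CAST, with the floor set at 3 counts over a group. None of its words occur in another gene. Tmem254c, a transmembrane protein gene (chromosome 14, 26063919 to 26067355, minus strand), was at 0 in all 6 parental libraries and at 19.8, 41.6 and 32.6 CPM in the hybrid, at least 506-fold and 405-fold higher than 129 and CAST. All of its words also occur in Tmem254b, a copy on the same chromosome (26203369 to 26207041), which was at 0.122 to 1.24 CPM in every library, so reads of the 2 copies cannot be told apart by sequence and the value is uncertain. Floors and ratios cover counting error only.

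Coding sequences of such copies are shown because counts of each copy are uncertain. The coding sequences of Tmem254c and Tmem254b (387 bases each) differ at 0 bases in the reference, as do those of Mfap1a and Mfap1b (1317 bases each), a pair described with the 129 level. The first 90 coding bases of each are shown from the GENCODE M21 transcripts of GRCm38, all from minus-strand genes, with the start codon in capitals.
Tmem254c: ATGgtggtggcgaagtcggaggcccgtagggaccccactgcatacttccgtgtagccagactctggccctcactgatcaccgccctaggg
Tmem254b: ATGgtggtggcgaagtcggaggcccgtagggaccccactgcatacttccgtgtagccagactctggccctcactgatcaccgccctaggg
Mfap1a: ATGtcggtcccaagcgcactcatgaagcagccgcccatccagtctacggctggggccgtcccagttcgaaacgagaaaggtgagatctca
Mfap1b: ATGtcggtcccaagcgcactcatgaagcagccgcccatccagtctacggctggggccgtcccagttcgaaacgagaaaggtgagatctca

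Below both parents, the rule for named genes found 7 genes, and some of them had no read in the hybrid. Akr1b3, the aldose reductase of the polyol pathway (chromosome 6, 34302434 to 34317478, minus strand), was at 89.9, 71.3 and 55.9 CPM in 129, 205, 59.7 and 56.9 CPM in CAST, and 0 in all hybrid libraries, at least 862-fold below 129 and 1099-fold below CAST. Tfb2m, a factor for mitochondrial transcription, was at 13.3, 13.7 and 10.3 CPM in 129, 2.99, 4.32 and 4.66 CPM in CAST and 0 in the hybrid, at least 147-fold and 49.0-fold below 129 and CAST. Mir6236, annotated as a miRNA gene, was at 125, 111 and 120 CPM in 129, 0.826, 0.449 and 0.645 CPM in CAST and 0 in the hybrid, at least 1411-fold and 7.16-fold below 129 and CAST. Words shared with other genes made up 15.2% of Akr1b3, 36.4% of Tfb2m and 0% of Mir6236.

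The other named genes kept reads in the hybrid. Tent2 (chromosome 13, 93146282 to 93192385), a cytoplasmic poly(A) polymerase, was at 20.8, 20.3 and 19.6 CPM in 129, 3.54, 1.82 and 1.40 CPM in the hybrid, and 35.0, 23.5 and 32.2 CPM in CAST (−3.44 ± 0.40, adjusted p = 0.000556, edgeR). Stx11, a syntaxin of vesicle fusion, was at 11.5, 14.4 and 16.6 CPM in 129, 4.17, 5.45 and 3.98 CPM in the hybrid, and 34.7, 26.4 and 19.1 CPM in CAST (−2.10 ± 0.33, adjusted p = 0.00308, edgeR). For both genes all hybrid libraries lay below all parental ones, and both calls held with any single library left out. Of the words of Tent2, 23.6% occur in another gene. Usp8, a deubiquitinase of the endosome (chromosome 2, 126707328 to 126759297), was at 127, 120 and 111 CPM in 129, 57.1, 32.4 and 43.8 CPM in the hybrid, and 104, 114 and 123 CPM in CAST. Rrs1, a ribosome biogenesis factor, was at 11, 10.8 and 11.8 CPM in 129, 3.54, 3.63 and 4.61 CPM in the hybrid, and 10, 8.53 and 11 CPM in CAST. The log2 differences from the midparent were −1.39 ± 0.29 for Usp8 (adjusted p = 0.0158, edgeR) and −1.41 ± 0.30 for Rrs1 (adjusted p = 0.0152, edgeR). Both genes had similar parental levels, 15.8% of the words of Rrs1 occur in another gene, and both genes missed the threshold without 129 2 or hybrid 2, Usp8 also without hybrid 3 and Rrs1 also without hybrid 1, with the highest adjusted p at 0.081 and 0.067 (edgeR).

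**Figure D3:**
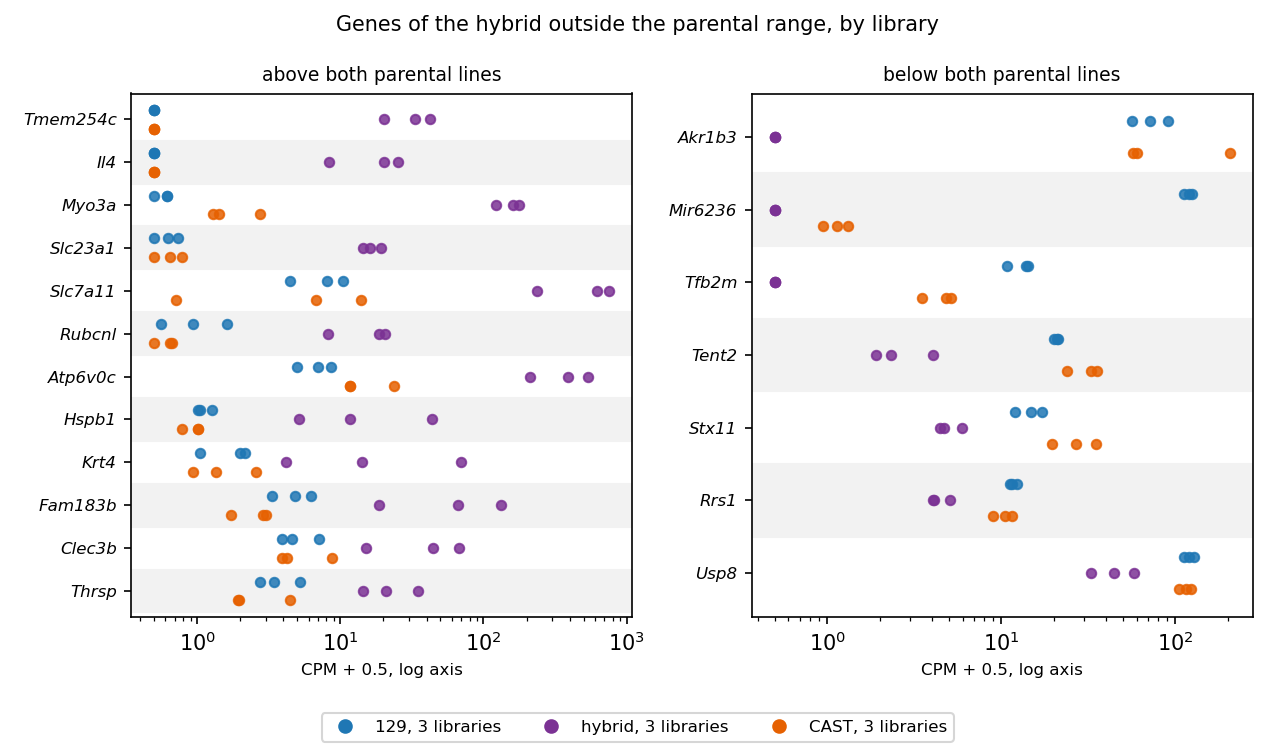
CPM of each of the 9 libraries, with 0.5 added, on a log axis for the 12 named genes above (left) and the 7 named genes below (right) both parental lines. Purple hybrid points lie outside the blue 129 and orange CAST points in every row, by the rule that named the genes.

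Sequence shared with other genes was counted for each class. At least 10% of the 31-base words occurred in another gene for 36.4% of the 44 genes below both parents and 43.2% of the 74 below the midparent, against 5.82% of all. The shares were 16.1% for genes above both parents and 7.8% for genes above the midparent. When genes with such words were left out, an alternative chosen after seeing the data, 201 genes were above and 42 below the midparent.

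The parental lines themselves differed for 91 genes, 0.982% of the 9266, with 41 higher and 50 lower in CAST. Of these, the hybrid was at the 129 level for 42 genes, at the CAST level for 25 and additive for 19, and it lay outside both parents for the remaining 5. These counts, and their order, depend on the tool and on single libraries: DESeq2 gave 177, 172 and 250. Leaving out 129 1, 129 2 or 129 3 gave 21, 8 and 5, then 12, 3 and 2, then 13, 6 and 3, and leaving out CAST 2 or CAST 3 gave 12, 5 and 3, then 24, 11 and 11. Without CAST 1, 12 were additive, without hybrid 1 or hybrid 2, 34 and 40 were additive, and without hybrid 3, 14 were at the CAST level. A gene was placed at the level of 1 parent where the hybrid was called against the other parent in that direction and not against the first. A missed threshold does not show equality, so the position of the hybrid is given as well, on a scale where 0 is the 129 level and 1 the CAST level. Among genes with more than 3 counts in each group, the position was 0.14 in the median for the 129 level (−0.53 to 0.45, 30 genes), 0.71 for the CAST level (0.53 to 0.95, 16 genes) and 0.46 for additive genes (0.34 to 0.66, 16 genes). Both directions occurred in each class: CAST was the higher parent for 20 of 42, 10 of 25 and 8 of 19 genes. Words shared with other genes reached 10% for 42.9% of the genes at the 129 level, 44% at the CAST level and 15.8% of the additive genes. Reads were aligned to mm10, and whether reads of all lines align to it equally well was not tested. The parental differences and the classes may depend on it.

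Some genes at the 129 level had reads in 129 and the hybrid but few or none in CAST. Inafm1 was at 9.56, 10.2 and 11.7 CPM in 129, 7, 23.2 and 16.0 CPM in the hybrid, and 0 in CAST. Hacd1, a dehydratase that acts in lengthening fatty acids, was at 27.2, 28.2 and 19.4 CPM in 129, 16.2, 31.2 and 15.2 CPM in the hybrid, and 0, 0.337 and 0.143 CPM in CAST. Ifi202b, an interferon-inducible gene, was at 13.2, 15 and 20.2 CPM in 129, 6.01, 10.2 and 10.6 CPM in the hybrid, and 0.206, 0 and 0.0717 CPM in CAST. The hybrid overlapped 129 for Inafm1 and Hacd1 and lay below it for Ifi202b, and all 3 were higher in the hybrid than in every CAST library. Hacd1 was above the midparent by 3.26 ± 0.48 (adjusted p = 0.00208, edgeR), with 33.9% of its words shared with another gene. Ifi202b had 3 counts over the CAST group, and the ratio of the hybrid to CAST was 120 with a 95% counting interval of 40.7 to 585.

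In the reverse case, 129 and the hybrid had few or no reads and CAST had many. Ramac, which activates the methyltransferase of the mRNA cap, was at 74.9, 50.2 and 46.4 CPM in CAST, 0.0556, 0 and 0.0575 CPM in 129, and 0 in the hybrid. Rasl2-9, a gene related to the small GTPase Ran, was at 106, 27.8 and 30.4 CPM in CAST, at most 0.183 CPM in 129 and 0 in the hybrid. Mfap1a, a splicing factor gene, was at 15.6, 26.8 and 27.2 CPM in CAST, at most 0.230 CPM in 129 and 0 in the hybrid. Shared words made up 58.9% of Ramac, 15.3% of Rasl2-9 and 63.9% of Mfap1a, whose copy Mfap1b has the identical coding sequence shown above and was not analysed here. With the floor of 3 counts over a group, the hybrid was at least 649-fold, 557-fold and 289-fold below CAST for Ramac, Rasl2-9 and Mfap1a.

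At the CAST level, Rsph1, a radial spoke protein of motile cilia, was at 8, 4.82 and 6.84 CPM in 129, 34.8, 67.2 and 70.9 CPM in the hybrid, and 113, 69.0 and 40.7 CPM in CAST. Fam71e1 was at 0.804 to 1.04 CPM in 129, 4.53, 13.6 and 9.78 CPM in the hybrid and 19.9, 9.10 and 4.52 CPM in CAST. Miip, an inhibitor of cell migration, was at 1.03 to 2.01 CPM in 129, 5.80, 14.3 and 9.71 CPM in the hybrid and 21.9, 14.4 and 8.89 CPM in CAST. Cenps, a centromere protein, was at 1.34 to 1.83 CPM in 129, 3.61, 9.36 and 8.04 CPM in the hybrid and 27.9, 12.9 and 9.10 CPM in CAST. The hybrid libraries lay above all 129 libraries for these 4 genes and overlapped CAST, for Cenps only where hybrid 2 lay just above CAST 3. Positions were 0.90 for Rsph1, 0.92 for Fam71e1, 0.81 for Miip and 0.63 for Cenps. The parental difference behind each was 3.24 to 3.57 (adjusted p 0.0146 to 0.0412, edgeR), and none kept its call when 1 of the 129 libraries was left out. Mir692-1, annotated as a miRNA gene, and Nutf2-ps1, a copy of the nuclear transport factor gene Nutf2 with 96.2% of its words shared, had 107 to 205 CPM and 20.8 to 24.5 CPM in 129 and 0 in the other 6 libraries. Of the words of Mir692-1, 32.9% occur in the pseudogene Ftl1-ps1. For Mir692-1 and Nutf2-ps1, the CAST level is a shared absence of reads in CAST and the hybrid.

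Additive genes lay between the parents on the log2 scale. Tas1r1, a taste receptor subunit, was at 0.389, 0.061 and 0.115 CPM in 129, 2.69, 1.26 and 4.12 CPM in the hybrid, and 44.1, 51.7 and 53.9 CPM in CAST. Aldh3a1, an aldehyde dehydrogenase, was at 0.172 to 0.334 CPM in 129, 0.637, 4.47 and 3.98 CPM in the hybrid, and 29.8, 31.4 and 15.7 CPM in CAST. Vnn1, a pantetheinase, went the other way, with 17.6, 21.4 and 23 CPM in 129, 7.78, 2.10 and 2.03 CPM in the hybrid and 0.310 to 0.860 CPM in CAST. In these 3 genes the groups did not overlap, and the hybrid was called against both parents. Their differences from the midparent were −0.20 ± 0.58, 0.28 ± 0.54 and 0.27 ± 0.50, with positions of 0.47, 0.54 and 0.45. The parental call of Aldh3a1 was lost without 129 2 or 129 3 and that of Vnn1 also without CAST 2 (highest adjusted p 0.063 and 0.0764, edgeR). The midparent is a mean of logs, which on the CPM scale lies below the arithmetic mean of the parents. The classes could therefore differ under an arithmetic mean, which was not used here. Mean levels in 129, the hybrid and CAST were 0.188, 2.69 and 49.9 CPM for Tas1r1, called additive. They were 16.1, 8.92 and 0.0927 CPM for Ifi202b, placed at the 129 level.

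The other named additive genes were called between the parents but not against either one. Kcnj5, a potassium channel subunit, was at 19.6, 22.2 and 22.1 CPM in 129, 6.65, 4.61 and 8.04 CPM in the hybrid, and 0.929, 1.63 and 3.44 CPM in CAST. Cisd3, a mitochondrial iron-sulfur protein, was at 1.04 to 1.49 CPM in 129, 2.33, 15.1 and 4.47 CPM in the hybrid, and 135, 31.1 and 24.2 CPM in CAST. Htr2a, a serotonin receptor, was at 9.34, 22.4 and 11.3 CPM in 129, 4.81, 1.68 and 3.49 CPM in the hybrid, and 0.723, 1.57 and 1.94 CPM in CAST. The parental call was lost without 129 1, 129 2, 129 3 or CAST 2 for Kcnj5 and Cisd3 (highest adjusted p 0.107 and 0.175, edgeR), and without any 1 of 7 libraries for Htr2a (0.178). Groups were apart for Kcnj5 and Cisd3, and hybrid 2 fell within the CAST range for Htr2a. Over all 19 additive genes, 5 were called against both parents and 14 against neither.

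**Figure D4:**
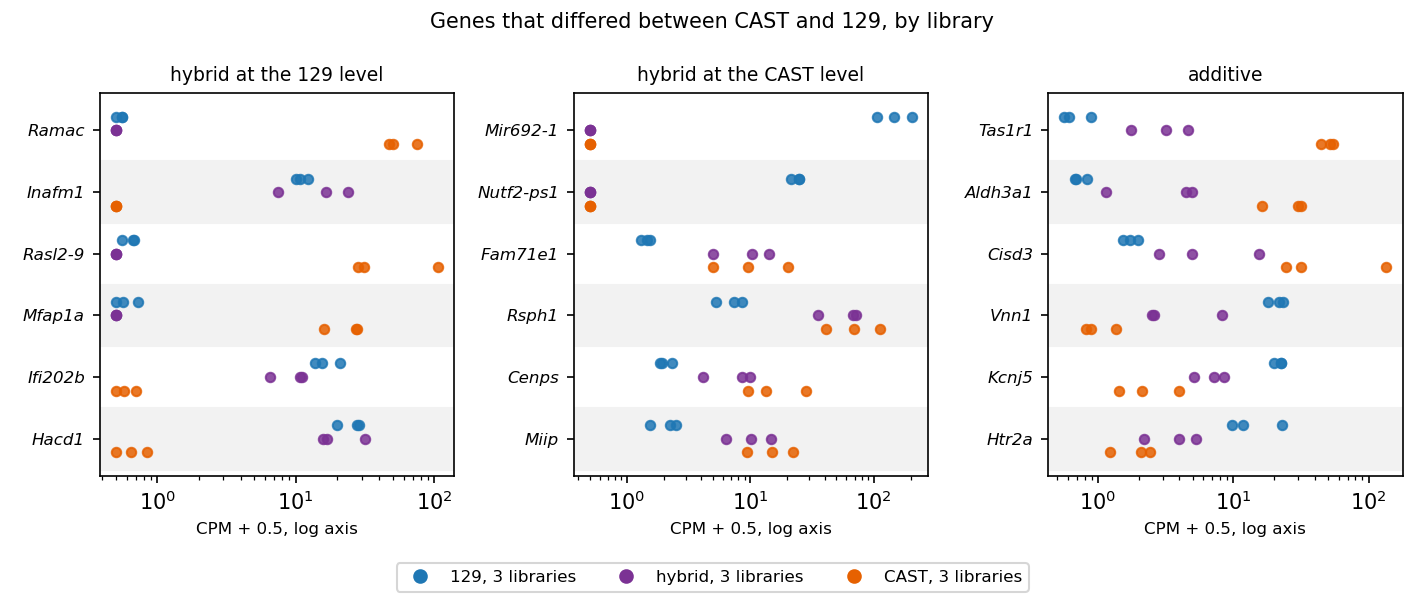
CPM of each of the 9 libraries, with 0.5 added, on a log axis for 6 genes of each class of parental difference. By calls, the purple hybrid was placed at the level of blue 129 (left), of orange CAST (middle) or as additive (right). Hybrid points lie below all 129 points for Ifi202b and mostly below all CAST points for Cenps. For Htr2a, hybrid 2 lies within the CAST range.

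Gene lists were described by counts and medians. In the 44 lists there are 987 genes; 852 were tested, and 560 of those had no exonic overlap. Of the 560, 15 were above and 5 below the midparent, shares close to the 2.36% and 0.799% of all genes. Nothing is read from these counts. The calls fell in 14 of the 44 lists.

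Genes of motile cilia, the beating cilia of ependymal and airway cells, held 5 of the 15 calls above. Of 14 members without overlap, 5 were above, 0 below and 12 had a positive difference, with a median of 1.38 (1.38 also with groups at 0 counts set to the floor), beside −0.05 over all genes. Over all genes without overlap, 2.36% were above and 0.799% below. Their summed level was 61.5 to 137 CPM in 129, 331 to 470 CPM in the hybrid and 178 to 383 CPM in CAST, so the sums of the hybrid and CAST overlapped. Tekt4, a tektin of the ciliary microtubules, was at 0.945, 0.305 and 0.172 CPM in 129, 5.09, 18.9 and 8.94 CPM in the hybrid, and 0.723, 2.13 and 1 CPM in CAST (3.77 ± 0.60, adjusted p = 0.00354, edgeR). It was the 1 member of the 14 called against both parents. Tekt1, another tektin, was at 0.427 to 1.83 CPM in 129, 9.27, 25.7 and 18.5 CPM in the hybrid, and 0.310, 3.99 and 0.143 CPM in CAST (3.89 ± 0.86, adjusted p = 0.0217, edgeR). It missed the threshold without 129 2, 129 3, hybrid 2 or hybrid 3, with the highest adjusted p at 0.0882 (edgeR). Pifo, which acts in the disassembly of primary cilia, was at 0.172 to 0.889 CPM in 129, 1.77, 5.31 and 5.52 CPM in the hybrid and 0 in CAST, at least 55.1-fold above CAST. Tekt1 and Pifo passed the filter on low counts only with their hybrid reads, so nothing is read from their calls. Both are among the 5 calls and enter the median.

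Rsph9, a radial spoke protein, and Drc1, a subunit of the nexin-dynein regulatory complex, were above by 2.88 ± 0.56 (adjusted p = 0.0102, edgeR) and 2.02 ± 0.44 (adjusted p = 0.0197, edgeR). Drc1 was at 32.2, 44.7 and 57.9 CPM in the hybrid and at most 27.3 CPM in the parents, whereas hybrid 1 lay within the CAST range for Rsph9. Foxj1, the main transcription factor of motile ciliogenesis, was at 67.3, 17.6 and 15 CPM in 129, 97.7, 62.2 and 148 CPM in the hybrid, and 11.1, 102 and 57.1 CPM in CAST, with a difference of 1.24 ± 0.67 that did not pass (adjusted p = 0.368, edgeR). Ccno, which drives the making of many basal bodies, was at 0 in all 3 hybrid libraries and at 0.111 to 4.96 CPM in the parents (adjusted p = 0.0773, edgeR). Without CAST 1 and hybrid 2 the list had 5 calls above and a median of 1.52, with Rsph1 passing (adjusted p = 0.0379) and Tekt1 not (adjusted p = 0.0741, edgeR), and with the length offset 7 above, 1 below and a median of 1.63. Tekt4, Rsph9, Drc1, Foxj1 and Ccno were named after their values were seen.

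**Figure D5:**
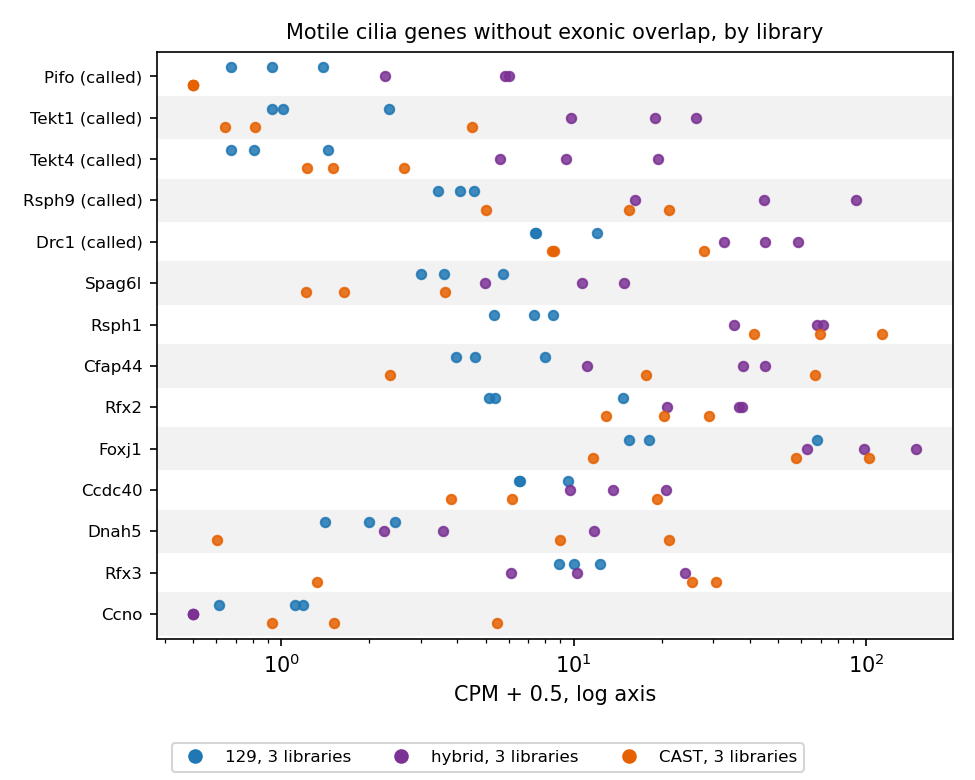
CPM of each of the 9 libraries, with 0.5 added, on a log axis for the 14 motile cilia genes without exonic overlap, ordered by the difference between the hybrid and the midparent. The 5 called genes are marked, and for 4 of them all purple hybrid points lie right of all parental points; Ccno at the foot has no hybrid reads.

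Other markers of glia, muscle and division gave single calls. Gfap, an intermediate filament of astrocytes, was at 27.0, 3.17 and 3.10 CPM in 129, 76.6, 305 and 162 CPM in the hybrid, and 2.17, 23.1 and 14.4 CPM in CAST (3.90 ± 0.86, adjusted p = 0.0211, edgeR). It was 1 of 11 astrocyte and radial glia genes called, with a list median of −0.23, and missed the threshold without 129 3, hybrid 2 or CAST 3 (highest adjusted p 0.0974, edgeR). Mog, a protein of the myelin surface, was at 0.556, 0 and 0 CPM in 129, 13.1, 5.59 and 22.5 CPM in the hybrid, and 0 in CAST, at least 212-fold above CAST. Of the 7 oligodendrocyte genes, 3 had a positive difference, and Mog alone was called. Mog passed the filter on low counts through its hybrid reads, so nothing is read from its call. Myh3, an embryonic myosin heavy chain, was lower in the hybrid at 1.70, 1.68 and 1.19 CPM, against 4.38 to 18.4 CPM in the parents (−2.38 ± 0.48, adjusted p = 0.0132, edgeR), and missed the threshold without hybrid 2 or hybrid 3. Of its words, 11.1% occur in other genes. Ccnb2, a mitotic cyclin, was at 11.3, 27.5 and 20.3 CPM in the hybrid and 3.84 to 10.8 CPM in the parents (1.47 ± 0.38, adjusted p = 0.0461, edgeR). It was 1 of 16 cell cycle genes called, and missed the threshold without any 1 of 6 libraries, namely 129 2, 129 3, hybrid 2, hybrid 3, CAST 2 and CAST 3.

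Glutathione is the main thiol antioxidant of the cell, and NRF2 is the factor that drives many genes of its synthesis and use. Slc7a11 was the 1 call among 19 genes of glutathione and NRF2 targets without overlap, where 11 had a positive difference, the median was 0.34 and 8 had an unadjusted p below 0.05. Slc3a2, the partner chain of the exchanger, had a difference of −0.79 ± 0.30 (adjusted p = 0.193, edgeR). Mgst1, a microsomal glutathione transferase, had 1.44 ± 0.38 (adjusted p = 0.0553, edgeR), and Txnrd1, a thioredoxin reductase, −0.87 ± 0.35 (adjusted p = 0.212, edgeR). Slc7a11 was also the 1 call among 21 genes of the integrated stress response, of which 6 had a positive difference and the median was −0.48. Slc3a2, Mgst1 and Txnrd1 were named after their values were seen.

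Heat shock and interferon genes were called in both directions. Beside Hspb1, Hspa1b, an inducible HSP70, was at 0 in the hybrid, 0.945, 0.549 and 1.38 CPM in 129 and 14.6, 7.8 and 15.2 CPM in CAST, at least 11.5-fold and 141-fold lower than 129 and CAST. Of its words 68.1% occur in another gene, mostly Hspa1a. The remaining 12 of 14 heat shock genes were not called, and the list median was −0.29. Ifitm1, an interferon-induced membrane protein, was at 2.12, 51.8 and 9.43 CPM in the hybrid, which overlapped the 0.305 to 3.41 CPM of the parents, and its difference of 3.94 ± 0.83 was 2.31 without CAST 1 and hybrid 2 (adjusted p = 0.0862, edgeR). It missed the threshold without 129 3 or hybrid 2. Isg15, a ubiquitin-like modifier, was at 0 in the hybrid, 2.01 to 6.28 CPM in 129 and 1.08 to 22.2 CPM in CAST, at least 46.7-fold below 129, and missed the threshold without any 1 hybrid library. Of the words of Ifitm1 and Isg15, 11.6% and 13.1% occur in other genes. With Ifi202b, 2 of 18 interferon genes were above and 1 below, with a median of −0.47.

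Cytosolic ribosomal protein genes were uneven among libraries of the same line. Of 17 without overlap, 16 had a positive difference with a median of 1.67, and 1 was called, Rps15 (3.40 ± 0.84, adjusted p = 0.0384, edgeR). Their summed level was 5887, 52028 and 8800 CPM in hybrid 1, 2 and 3, 3645 to 4799 CPM in 129, and 24903, 4154 and 3993 CPM in CAST 1, 2 and 3, so hybrid 2 and CAST 1, the libraries with the strongest length trend, held the highest values. Without both libraries the median was 0.77, and 5 genes were above and 1 below. Rps15 was at 362, 3846 and 603 CPM in the hybrid, 305, 306 and 227 CPM in 129, and 190, 28.9 and 29.1 CPM in CAST. Of its words, 49.7% occur in other genes. It missed the threshold without any 1 of 6 libraries, with the highest adjusted p at 0.302 (edgeR).

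Of the 44 lists, 15 had a positive median, and several neuronal lists were among those with a negative one. Other lists were negative as well, such as p53 targets with a median of −0.61 and 1 of 16 genes positive. The 7 clustered protocadherins without overlap, cell surface proteins that give neurons individual identities, all had negative differences with a median of −1.48, 0 calls by edgeR and 4 unadjusted p-values below 0.05. Their summed level was 87.4, 125 and 184 CPM in 129, 47.3, 13.0 and 28.1 CPM in the hybrid, and 17.6, 71.5 and 87.3 CPM in CAST, so that CAST 1 lay within the hybrid range. Of the 12 clustered protocadherins with exonic overlap, 2 were called, both above the midparent: Pcdhgc5 by 4 ± 0.73 (adjusted p = 0.00733, edgeR) and Pcdhac2 by 1.84 ± 0.47 (adjusted p = 0.0445, edgeR), with 39.6% and 48.6% of their exon bases shared. Of 18 genes of the axonal cytoskeleton 3 had a positive difference (median −0.81, 0 calls, 1 unadjusted p below 0.05), of 30 genes of axon guidance 7 did (median −0.78, 0 calls, 2 unadjusted), and of 14 genes of synaptic vesicle release 0 did (median −0.56, 0 calls, 1 unadjusted). Among 19 ion channels with a median of −0.94, Scn3b, a sodium channel subunit, was called: it was at 20.0, 22.9 and 35.6 CPM in 129, 13.7, 7.96 and 21.0 CPM in the hybrid, and 62.9, 150 and 135 CPM in CAST (−1.95 ± 0.45, adjusted p = 0.0271, edgeR). Its hybrid level overlapped 129, and it missed the threshold without any 1 of 6 libraries. Nog, the BMP antagonist noggin, was at 9.20, 4.19 and 8.11 CPM in the hybrid and 16.1 to 32.9 CPM in the parents (−1.62 ± 0.40, adjusted p = 0.0373, edgeR), the 1 call among 24 genes of activin, TGF-beta and BMP signalling, lost without any 1 of 7 libraries. Hybrid 2 had the lowest summed level of the 3 hybrid libraries for protocadherins, cytoskeleton, guidance, release and channels. For axon guidance the sums were 5362, 4610 and 4606 CPM in 129, 5513, 1043 and 2775 CPM in hybrid 1, 2 and 3, and 665, 4453 and 5633 CPM in CAST 1, 2 and 3, so that both libraries with the strong length trend were lowest and hybrid 1 was above every 129 library. For ion channels they were 1146, 1777 and 2902 CPM in 129, 1198, 695 and 1191 CPM in the hybrid, and 1017, 2046 and 1933 CPM in CAST. The hybrid sums overlapped both parents for ion channels and guidance, and 129 for the cytoskeleton and release. The part of the length trend in these medians was not tested beyond the values that follow. Without CAST 1 and hybrid 2 the medians were −1.31 for protocadherins, −0.55 for the cytoskeleton, −0.60 for guidance, −0.32 for release and −0.78 for channels. With the length offset they were −1.5, −0.58, −0.35, −0.30 and −0.38 in that order.

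The 2 remaining calls in the lists were above the midparent. Astn2, a protein of neuronal migration, was at 43.4, 30.2 and 45.3 CPM in 129, 40.3, 16.1 and 35.0 CPM in the hybrid, and 1.86, 3.54 and 2.72 CPM in CAST, and belonged to the genes at the 129 level (1.55 ± 0.35 against the midparent, adjusted p = 0.0232, edgeR). Col9a1, a collagen of cartilage, was at 2.97, 3.63 and 4.82 CPM in the hybrid, 0.488 to 0.575 CPM in 129 and 0.206 to 2.30 CPM in CAST (2.27 ± 0.57, adjusted p = 0.0430, edgeR). Both missed the threshold in most fits with 1 library left out. Outside the neuronal lists, the 20 nuclear-encoded genes of the respiratory chain had a median of 0.65 with 18 positive, 0 calls and 0 unadjusted p-values below 0.05 by edgeR, and −0.18 with the length offset.

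Of the 852 tested list members, 560 had no exonic overlap, and among the others 20 were called, 13 above and 7 below the midparent. Over all 5573 tested genes with exonic overlap, 11.7% were above and 2.55% below. The 20 are given as uncertain, since reads over shared exons may be split between genes. Hybrid and parental libraries did not overlap for 17 of the 20, and they did for Snrpn, Zdbf2 and Pcdhac2. Since the call uses the same contrast, nothing is read from that count. From the 20, 5 were chosen for description after their values were seen. S100a4, a calcium-binding protein of fibroblasts, was at 28.9, 106 and 15.9 CPM in the hybrid and at most 0.168 CPM in the parents, with 51.7% of its exon bases shared. Of 12 fibroblast and mesenchyme genes without overlap, 0 were called. Fdps, which makes farnesyl diphosphate in cholesterol synthesis, was at 69.1, 233 and 144 CPM in the hybrid, 0.556, 0.732 and 1.15 CPM in 129 and 5.47, 4.38 and 2.44 CPM in CAST, with 26.7% shared. Cx3cr1, the fractalkine receptor of microglia, was at 35.3, 19.1 and 31.6 CPM in the hybrid and at most 1.34 CPM in the parents, with 1.7% shared. The 2 genes of microglia and blood without overlap had 0 calls. They summed to 7.78 to 15.9 CPM in the hybrid, 7.45 to 11.8 CPM in 129 and 8.7 to 18 CPM in CAST. S100a4 and Cx3cr1 passed the filter on low counts through their hybrid reads, so nothing is read from their calls. Ddit3, the stress transcription factor CHOP, was at 0 in the hybrid, 30.2, 30.9 and 21.0 CPM in 129 and 119, 20.8 and 29.2 CPM in CAST, with 10.9% shared. Gnas, an imprinted G protein gene, was at 226, 535 and 414 CPM in the hybrid, 1298, 1314 and 1510 CPM in 129 and 9168, 3165 and 2437 CPM in CAST, with 22% shared. All hybrid libraries lay on the same side of all parental libraries for each of these 5 genes, and Gnas missed the threshold without any 1 of 6 libraries. The other called members were Nkx6-2, Hoxa2, Gpr17, Krt5, Hydin, Copg2, Ddb2, Snrpn and the protocadherins above, and Hoxb3, Zdbf2, Ndrg1, Slc6a9 and Nrarp below.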

How the data were processed

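Polyadenylated RNA was sequenced, and reads were aligned with STAR to mm10, per the submitters' processing notes. Which STAR version, counting tool, annotation and strandedness the authors used is not given in the sources used here. Whole-number counts per Ensembl gene, as deposited, show no sign of normalization. Symbols (27030 of 27071), coordinates, exon overlap and shared 31-base words were taken from GENCODE M21 (GRCm38). Genes passed filterByExpr (minimum count 10, total 15, proportion 0.7), and all 3 groups entered 1 robust quasi-likelihood fit of edgeR 4.0.16 (R 4.3.3) with TMM scaling and no covariates. CPM are TMM-scaled. Bounds use a floor of 3 counts over a group. Errors are SE from the fit, n = 3 libraries per group. The script was tested on simulated data. Members and lists were chosen with earlier results of these data known, and 61 listed symbols were not analysed here. Named genes, not predicted, Y-linked or Xist, were the 12 largest changes per direction outside all parental libraries and called against both lines and the 6 largest parental differences per class, both of at least 5 CPM on average, and, at any level, up to 2 called members per direction from each list (or its most abundant member) and 5 motor neuron genes. Alternatives used RLE scaling, limma-voom (limma 3.58.1), DESeq2 1.42.0, other filters, a length offset and left-out libraries.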

Additional observations from a re-analysis of the deposited data

How the results depend on the processing

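Counts are given here in 1 order: above and below the midparent, above and below both lines, 129 level, CAST level, additive. The reported 219, 74, 57, 44, 42, 25 and 19 became 463, 211, 148, 82, 177, 172 and 250 with DESeq2, and 58, 22, 15, 10, 20, 11 and 10 for genes of at least 5 CPM. All tested genes gave 873, 216, 527, 139 and 66 for the first 5. The length offset gave 133 below, 80, 50 and 58 for the classes of parental difference, and leaving out both CAST 1 and hybrid 2 gave 117, 65, 47 and 35. Limma-voom gave 46 at the CAST level and 44 additive, no filter on low counts 37 additive, and parents as 1 group 125 above and 49 below. With over 3 counts in each group, 20 were below, 19 above both, 5 below both and 16 at the CAST level. With under 10% shared words, 42 were below, 28 below both, 24 at the 129 level and 14 at the CAST level. These last settings were chosen after seeing the data. RLE scaling and a minimum log2 change of 1 kept every count within 1.5 times. Leaving out 1 library gave 120 to 512, 53 to 159, 24 to 67, 25 to 67, 12 to 45, 3 to 29 and 2 to 40. The causes were not tested.

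The labels do not say whether equal replicate numbers mark a shared batch. With log2 levels centred within each line, 2 of 9 pairs of equal number correlated above 0.1 (range −0.72 to 0.50). Pairs of unequal number were not compared, so these values do not decide it. With a replicate block the counts were 98, 47, 26, 26, 2, 0 and 1.

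Of 94 single-gene results, 71 were called, and 38 of these kept the call with each library left out. Genes without a call changed sign as follows when 1 library was left out: Nefl −0.22 to 0.46, Foxp1 −0.75 to 0.18, Slc17a6 −0.90 to 0.33, Flt1 −0.99 to 0.01, Klf4 −0.47 to 0.08, Ntn1 −0.84 to 0.40, B2m −0.85 to 0.14, Ctnnb1 −0.49 to 0.11, Lhx3 −0.97 to 0.25 and Olig2 −1.63 to 0.84. With the length offset, Foxp1 was 0.37, Slc17a6 0.02, Hoxb8 −0.05, Flt1 0.28, Ntn1 0.03 and Ptch1 0.14. Without both CAST 1 and hybrid 2, Slc17a6 was 0.14, Hoxb8 −0.02 and Ntn1 0.13. The 3 libraries per line limit precision most for genes of low level.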
